A study of Mus musculus with 6 samples.

Results

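Secreted Wnt inhibitors bind Wnt ligands or their co-receptors outside the cell and so keep the ligands from signalling. The set described here holds 10 mouse genes of 34964 on the array, taken as every probe that the scanner files name Sfrp1, Sfrp2, Sfrp4, Sfrp5, Frzb, Dkk1, Dkk2, Dkk3, Dkk4 or Wif1. Each gene had 1 probe and each probe 1 spot, so no value within an array is averaged over spots. Sfrp1 was among the genes that differed most between the sorted states in these arrays, and this was part of the choice of the set, so differences between those states are given as descriptions with no test.

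The samples were Dll1-high and Dll1-low cells, KO macrophages and WT macrophages, all from mammary glands of virgin female mice on the C57/B6 strain. The Dll1-high and Dll1-low cells are the CD24+ CD29-high fraction, labelled as mammary stem cells (MaSC), of C57/B6:Dll1-mCherry reporter mice, sorted as mCherry+ and mCherry- cells, with 1 array each. The KO macrophages are F4/80+ cells of C57/B6:cKO-Dll1 mice, in which Dll1, a ligand of Notch receptors, is conditionally deleted. The WT macrophages are F4/80+ cells of their wild type C57/B6 littermates, and each genotype had 2 arrays. The labels give neither the cells in which Dll1 was deleted, nor the age, nor whether the 2 replicates came from separate animals, so p-values between genotypes measure the spread between these samples, which may be technical. On each of the 6 arrays the sample was labelled with Cy5 and a universal reference RNA from 11 mouse cell lines with Cy3. Values are log2 ratios of sample over reference after background correction and loess normalization, so 0 means the level of the reference and not absence. A probe counts as detected where the scanner software set its Cy5 signal well above background.

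The secreted frizzled-related proteins, here Sfrp1, Sfrp2, Sfrp4, Sfrp5 and Frzb, carry a domain like the Wnt-binding part of the Frizzled receptors and can bind Wnt ligands directly. Wif1 also binds Wnt ligands. Dkk1, Dkk2 and Dkk4 instead bind the co-receptors Lrp5 and Lrp6, and Kremen proteins can join them there. Dkk3 belongs to the family by sequence, but its part in Wnt signalling is less settled. In the mammary gland, Wnt signalling through beta-catenin is known for its part in keeping basal stem cells.

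The probes are oligonucleotides of 60 bases, and their place relative to the end of each transcript was not determined. The first 30 bases are printed for the 5 genes whose values carry the results, with the mm9 position of the whole probe as the files give it. Sfrp1, Sfrp2 and Sfrp4 are shown for their order between the sorted states, and Dkk3 and Wif1 for their high levels in the CD24+ CD29-high cells.
Sfrp1, chr8:24559438-24559497, plus strand, from base 3705 of NM_013834: ttaaaatagtcattccggagagtcagggaa
Sfrp2, chr3:83577864-83577923, plus strand, from base 1628 of NM_009144: tcggcatctaagtcttcaaacatttcgttg
Sfrp4, chr13:19724488-19724547, plus strand, from base 1553 of NM_016687: cacagttgtctgtgtgcatactgtgtaaga
Dkk3, chr7:119259556-119259615, minus strand, from base 3274 of NM_015814: gcctgtaaatcgcatctgaagataccacag
Wif1, chr10:120537079-120537138, plus strand, from base 1622 of NM_011915: ggctgatatctactcttccttttaggtttt
The 10 probes held 35.0% to 45.0% G and C. The symbol of all 10 matched the accession of the probe in the RefSeq gene table, which was used for names only.

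The arrays differed in brightness. Cy5 was well above background for 86.0% of spots on the Dll1-high array and 88.1% on the Dll1-low array, against 47.4% to 71.9% on the macrophage arrays. The Dll1 probe with 10 spots read 3.94 in Dll1-high cells and 3.26 in Dll1-low cells. It read 0.80 and 2.25 in KO macrophages, against 0.78 and 3.24 in WT macrophages. The genotypes overlapped at this probe, and the labels do not say whether it lies in the deleted part. The other Dll1 probe, with 1 spot, read only 0.38 in Dll1-high and 0.24 in Dll1-low cells, and -0.03 to 0.04 in macrophages. The macrophage arrays were not alike. Across probes, the log2 ratios of KO replicate 2 and WT replicate 2 correlated at 0.96, those of KO replicate 1 at 0.72 and 0.71 with these 2, and those of WT replicate 1 at 0.43 and 0.41 with the same 2 and at 0.68 with KO replicate 1. The median over 10 macrophage markers was 1.64 in WT replicate 1, against 4.06 and 3.65 in KO macrophages and 3.57 in WT replicate 2. The 10 basal markers, which include keratin and smooth muscle genes, had medians of 4.52 in Dll1-high and 3.86 in Dll1-low cells. Their medians were 0.63 and 0.46 in KO macrophages and 0.62 and 0.29 in WT macrophages.

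The plot of each inhibitor on each array gives all 60 values. Sfrp2, Sfrp5 and Dkk3 were detected on all 6 arrays, and Sfrp4 on 5. Sfrp1 and Dkk1 were detected on both CD24+ CD29-high arrays and on none of the 4 macrophage arrays. Dkk4 and Wif1 were detected on both CD24+ CD29-high arrays and on 1 and 2 macrophage arrays. Frzb was not well above background on any array, and Dkk2 only on that of KO replicate 1, so nothing is compared for these 2 genes between the sorted states.

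**Figure D1:**
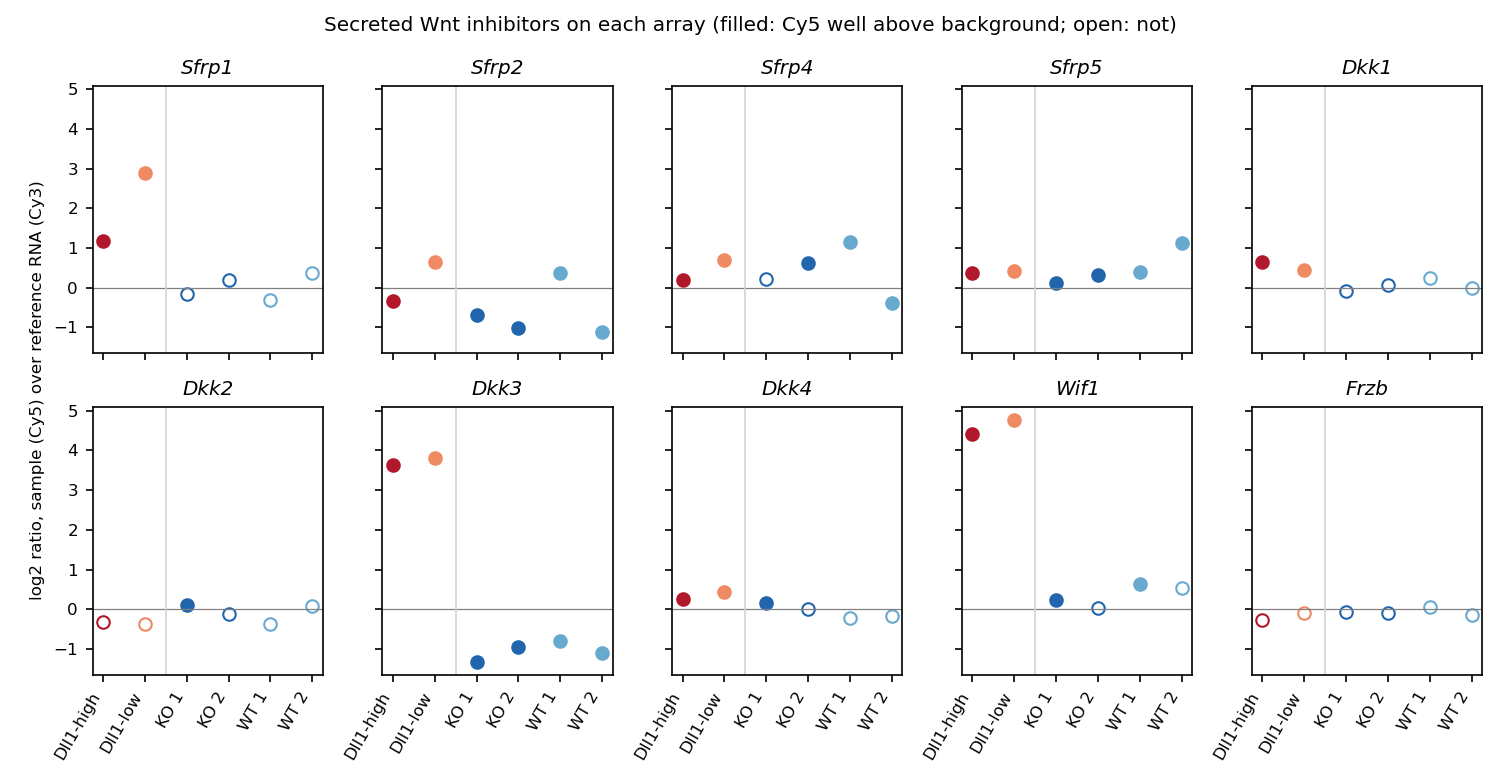
Log2 ratio of sample over reference RNA (y axis, same scale in all panels) for each inhibitor on the 6 arrays (x axis: Dll1-high, Dll1-low, KO replicates 1 and 2, WT replicates 1 and 2). Each point is 1 array, filled where Cy5 was well above background and open where not. Sfrp1, Dkk3 and Wif1 lie higher in both sorted states than on every macrophage array.

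Among the inhibitors that bind Wnt ligands, Sfrp1 had the widest gap between the sorted states. Its log2 ratio was 1.18 in Dll1-high cells and 2.89 in Dll1-low cells. The spot itself read 412.5 over a local background of 67 in the Dll1-high sample and 1457.5 over 69 in the Dll1-low sample, while the reference channel of the same spots read 97 and 116. The gap therefore lay in the sample channel. Dll1-high minus Dll1-low was -1.71, a level 3.26-fold lower in Dll1-high cells and the third lowest of 49637 probes.

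Sfrp2, a second frizzled-related protein, showed the next widest gap. It read -0.34 in Dll1-high cells and 0.65 in Dll1-low cells, with Cy5 signals of 724.5 and 1407.5. The Dll1-high sample was below the reference RNA and the Dll1-low sample above it. The difference of -0.99, 1.98-fold, ranked 42 from the lowest.

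Sfrp4 was lower in Dll1-high cells by a smaller amount, with 0.19 in Dll1-high and 0.69 in Dll1-low cells. Its difference of -0.49 was 1.41-fold and lay within the central 95% of all probes, which ran from -0.51 to 0.40. Sfrp5 was nearly level at 0.38 in Dll1-high and 0.41 in Dll1-low cells. Wif1, the Wnt inhibitory factor, was far above the reference RNA in both states, at 4.42 in Dll1-high and 4.77 in Dll1-low cells. Its difference was -0.36.

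Among the Dkk genes, no gap after loess came near those of Sfrp1 and Sfrp2. Dkk3 was the brightest inhibitor spot, with Cy5 signals of 24163.5 in Dll1-high and 26001.4 in Dll1-low cells and log2 ratios of 3.62 and 3.80. Dkk1, which blocks Lrp5 and Lrp6, read 0.64 in Dll1-high and 0.44 in Dll1-low cells. After loess it was the 1 detected inhibitor that read higher in Dll1-high cells. Dkk4, another blocker of these co-receptors, read 0.26 in Dll1-high and 0.43 in Dll1-low cells. The spots of Dkk1 and Dkk4 were dim, with Cy5 between 180.5 and 219 on these 2 arrays.

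Of the 8 inhibitors detected in at least 1 sorted state, 7 were lower in Dll1-high cells, where 55.2% of all probes were lower. One inhibitor, Sfrp1, was at least 2-fold lower, as were 0.0766% of probes, and 0 were at least 2-fold higher, as were 0.0786% of probes. The median difference was -0.27 over the 8 inhibitors and -0.03 over all probes, and from processed signals -0.69 over the 8 inhibitors and 0.00 over all probes. These counts describe 1 array per state and rest in part on how the set was chosen.

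With no replicate array, only the error of spots could be judged. Probes printed in 10 spots and of a brightness like that of Sfrp1 had a median SD of 0.17 over the Dll1-high minus Dll1-low differences of their single spots, and those like Sfrp2 had 0.11. This spread covers the spot and not the sort or the mice. From the processed signals of the scanner software, which had no offset of 50 added here, Sfrp1 differed by -2.25 ± 0.55, where the error is the scanner's own for the 2 spots. That is 4.74-fold and rank 105 from the lowest. Sfrp2 differed by -1.07 ± 0.30 and Sfrp4 by -0.63 ± 0.31 on this scale, where the central 95% of probes ran from -1.05 to 0.78. The dim probes moved more with the processing. Dkk1 was 1.02 ± 0.69 higher in Dll1-high cells, Dkk4 was at -0.75 ± 0.44, and Wif1, whose reference channel was dim, was at -0.85 ± 0.84. Processed signals put 2 inhibitors at least 2-fold lower (2.78% of probes) and 1 at least 2-fold higher (1.34% of probes). The plot of the differences sets both scales side by side.

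**Figure D2:**
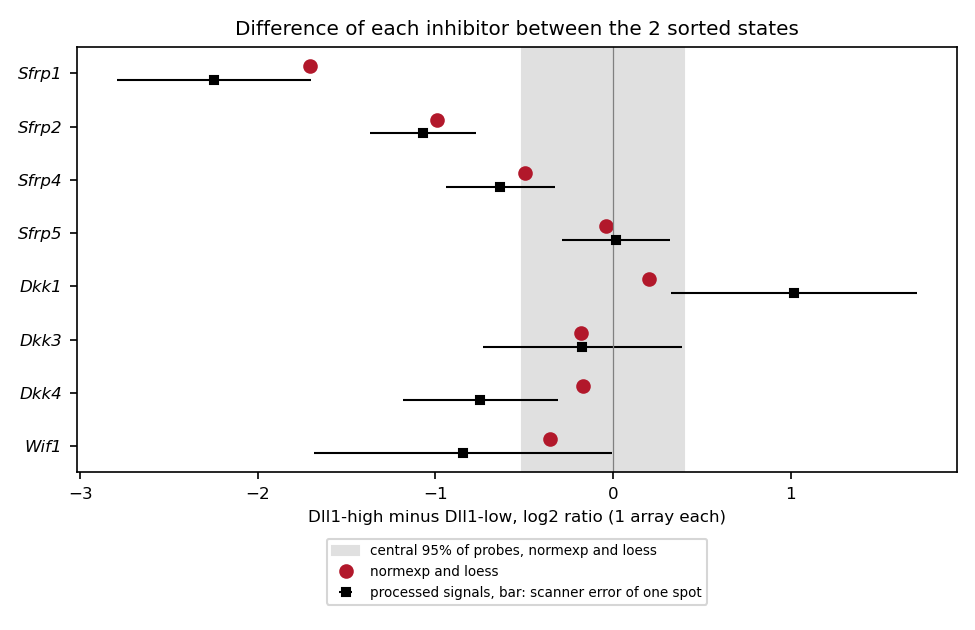
Dll1-high minus Dll1-low log2 ratio (x axis) for the 8 inhibitors detected in at least 1 state (y axis), from 1 array per state. Circles are background-corrected, loess-normalized values, squares are processed signals with the scanner's error of the difference as bars, and the grey band is the central 95% of all probes after loess. The circles of Sfrp1 (-1.71) and Sfrp2 (-0.99) lie left of the band, and their squares are at -2.25 and -1.07, where the central 95% of probes on the processed scale runs from -1.05 to 0.78.

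After loess, detected genes of the other pathway lists lay closer to 0 between the sorted states than Sfrp1 and Sfrp2. Several lay farther from 0 than Sfrp4 and the remaining inhibitors. Of 17 detected Wnt ligands, 9 were lower in Dll1-high cells with a median of -0.01. The widest gaps were those of Wnt3 at -0.68, Wnt5b at 0.58 and Wnt9a at -0.54. Of 16 receptors and co-receptors, 7 were lower with a median of 0.02, led by the Dkk1 target Lrp6 at -0.38. The Dkk co-receptors Kremen1 and Kremen2 were at 0.15 and 0.17. Of 7 R-spondins, which amplify Wnt signals, and their Lgr receptors, 3 were lower. Among them Rspo1 was at 0.58, Rspo3 at -0.45 and Lgr5 at -0.36.

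Of 12 detected Wnt antagonists outside the set, 5 were lower in Dll1-high cells, with a median of 0.12 after loess and -0.03 from processed signals. The bone morphogenetic protein and Wnt antagonist Sostdc1 was at 0.41, the Wnt deacylase Notum at -0.38 and Draxin at -0.32. Of 11 genes known as targets of beta-catenin, 5 were lower with a median of 0.00. The feedback inhibitor Nkd1 was at 0.73, while Cd44 was at -0.38 and Nkd2 at -0.31. After loess no detected gene of these pathway lists was 2-fold apart, and from processed signals Wnt3 was, at -1.01.

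Markers of several other cell types, but not of all, were also lower in Dll1-high cells. Of 15 fibroblast markers, 14 were lower in Dll1-high cells, with a median of -0.56. Fn1, fibronectin, was at -1.03, Pi16 at -0.96, and the collagen genes Col1a1 and Col1a2 at -0.72 and -0.69. All 15 were well above background in both states, and the summed normalized Cy5 signal of the 14 measured on every array was 36283 in Dll1-high and 45172 in Dll1-low cells. Luminal markers were lower for 12 of 14 with a median of -0.27, Elf5 among them at -1.31. Endothelial markers were lower for 8 of 9 with a median of -0.30, and adipocyte markers for 5 of 6 with -0.22. Macrophage markers were lower for 7 of 10 and lymphocyte markers for 5 of 7, with medians of -0.08 and -0.13. Mural markers were lower for 1 of 4, with a median of 0.09. Of 10 basal markers, 4 were lower, and the median was 0.11. Tagln, a smooth muscle protein of myoepithelial cells, was at 1.16, and Trp63 at -0.31. The part of these cells in the values of Sfrp1, Sfrp2 and Sfrp4 was not tested. In sorted bulk samples, fewer cells of a type and less RNA per cell cannot be told apart.

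**Figure D3:**
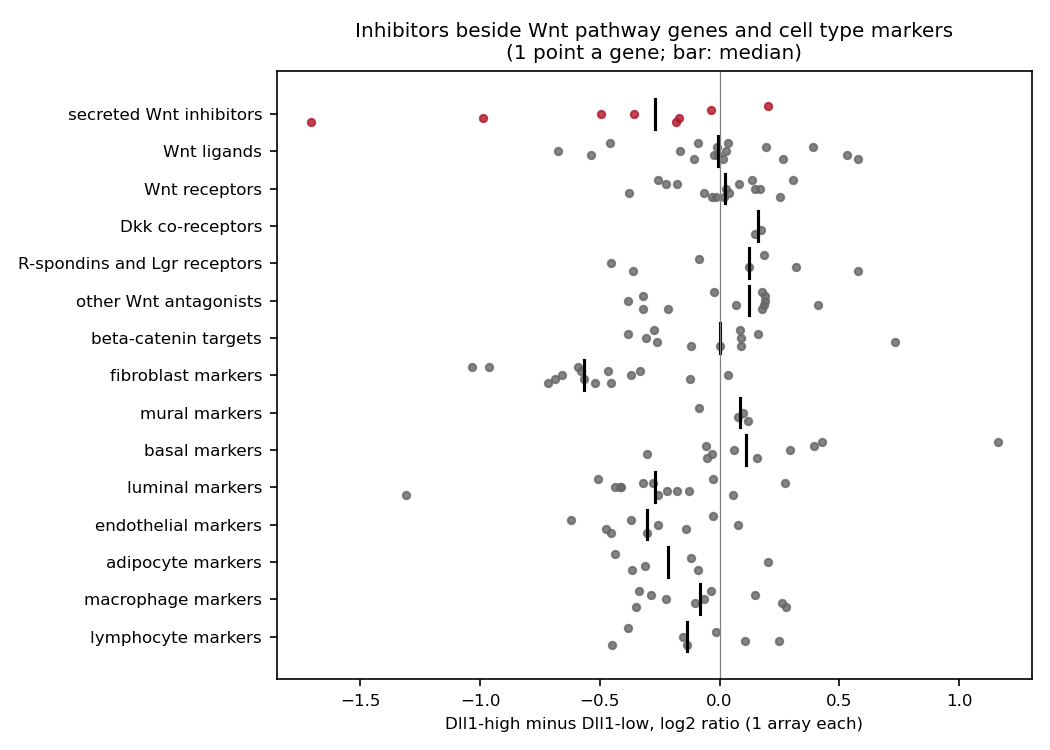
Dll1-high minus Dll1-low log2 ratio (x axis) for each detected gene, 1 point a gene, in the inhibitors, 6 further lists of Wnt pathway genes and 8 lists of cell type markers (y axis), with the list median as a bar. The medians of the inhibitors (-0.27) and the fibroblast markers (-0.56) lie left of 0. The inhibitor Dkk1 (0.20) and the fibroblast marker Dcn (0.04) lie right of it. The Wnt ligands, receptors and beta-catenin targets have medians of -0.01, 0.02 and 0.00.

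Across both cell types, Dkk3, detected on all 6 arrays, and Wif1 stood far above the macrophages in both sorted states. Dkk3 averaged 3.71 in CD24+ CD29-high cells, with 3.62 in the Dll1-high and 3.80 in the Dll1-low sample. In macrophages it averaged -1.05 ± 0.23 (SD, n = 4), with -1.34 and -0.96 on the KO arrays and -0.79 and -1.11 on the WT arrays. Both sorted states lay above the reference RNA and every macrophage array below it, and the means were 4.76 apart. Wif1 averaged 4.60 in CD24+ CD29-high cells. In macrophages it was well above background on only 1 array of each genotype, with ratios of 0.03 to 0.63 over the 4 arrays, so the size of its difference is not given.

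Sfrp1 was not well above background on any macrophage array. Its Cy5 signals there were 82.5 and 81.5 in KO and 80 and 94 in WT macrophages, over local backgrounds of 60 to 63. The mean of the CD24+ CD29-high cells was at least 3.60-fold above the macrophages, taking in the sample channel, for each macrophage array, the higher of the probe's own signal and the lowest signal well above background, which was the probe's own signal on all 4. For Dkk1 the same bound was only 1.13-fold. Dkk4 read 0.26 in Dll1-high and 0.43 in Dll1-low cells and was well above background on only 1 macrophage array, so no size is given for its difference either. Sfrp2, Sfrp4 and Sfrp5 overlapped between the cell types, with macrophage ranges of -1.12 to 0.38, -0.37 to 1.14 and 0.12 to 1.13.

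By the order of the arrays, 5 of 8 compared inhibitors were higher in both sorted states than on all 4 macrophage arrays, as were 15.8% of probes. Sfrp1, Dkk1 and Dkk4 entered this comparison only through the sorted states, where they read higher. Dkk2, detected on 1 macrophage array, did not enter it, so nothing is read from the count. From processed signals the 3 inhibitors in this order were Dkk1, Dkk3 and Wif1, and Sfrp1 overlapped, with 2.11 in Dll1-high and 4.36 in Dll1-low cells against 0.01 and 1.84 in KO and -1.78 and 2.34 in WT macrophages. Since the macrophages were hybridised and scanned on another slide than the CD24+ CD29-high cells, effects of slide and of cell type cannot be told apart.

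Between the genotypes, 5 inhibitors were bright enough to test in macrophages, and 0 passed. Over all 34568 probes tested with limma, 0 passed an adjusted p of 0.05 (0% called), and 49 had an unadjusted p under 0.05 (0.142%), none of them an inhibitor. The adjusted p was 1.00 for each of the 5 inhibitors by limma with Benjamini-Hochberg adjustment.

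Sfrp5 was the frizzled-related protein with the widest mean difference. It read 0.12 and 0.33 in KO macrophages, against 0.39 and 1.13 in WT macrophages. Both KO arrays lay below both WT arrays, as for 12.9% of probes, and 20.2% of probes were apart in either direction. KO minus WT was -0.53 (SE 0.40, 95% interval -1.61 to 0.55), and -0.95 from processed signals.

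Wif1 also had both KO arrays below both WT arrays, with 0.24 and 0.03 in KO macrophages against 0.63 and 0.54 in WT macrophages. The difference was -0.45 (SE 0.30, 95% interval -1.27 to 0.38). Processed signals put it at -1.74, and the gene was well above background on 1 array of each genotype.

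Sfrp2 read -0.70 and -1.01 in KO macrophages, against 0.38 and -1.12 in WT macrophages. WT replicate 1 alone was high, and the other 3 arrays were close together. The difference was -0.48 (SE 0.60, 95% interval -2.13 to 1.16), and without WT replicate 1 it was 0.27.

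Sfrp4 read 0.22 and 0.63 in KO macrophages, against 1.14 and -0.37 in WT macrophages. The WT arrays lay on either side of both KO arrays. The difference was 0.04 (SE 0.62, 95% interval -1.64 to 1.72). The spot of KO replicate 1 was near background in both channels, with 67 over 62 in Cy5 and 21 over 20 in Cy3, where the reference channel read 126 to 160 on the other macrophage arrays. Without KO replicate 1 the difference was 0.25, and without WT replicate 2 it was -0.72.

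Dkk3 differed by -0.20 (SE 0.34, 95% interval -1.12 to 0.72), with the genotypes overlapping. With each array centred on its median in place of loess, Dkk3 was at 0.70 and Sfrp2 at 0.43, where the median of all probes was 0.39 rather than -0.07. Of the inhibitors too dim to test, Dkk4 read 0.15 and 0.01 in KO macrophages, against -0.21 and -0.17 in WT macrophages. Both KO arrays lay above both WT arrays, as for 7.34% of tested probes, but the spot was well above background on 1 of these 4 arrays. Sfrp1, Dkk1, Dkk2 and Frzb overlapped between the genotypes.

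The arrays of replicate 1 lay in one row of the slide and those of replicate 2 in the other. Within the first row, KO minus WT was -1.07 for Sfrp2, -0.92 for Sfrp4 and -0.55 for Dkk3. Within the second row the same genes were at 0.11, 1.00 and 0.15. The first-row value of Sfrp4 uses the KO replicate 1 spot, which was near background in both channels, so its turn between rows is not read further. Sfrp5 was at -0.27 and -0.80 and Wif1 at -0.39 and -0.51 in the first and second rows. Only these 2 of the 5 tested inhibitors read lower in KO macrophages in both rows. Neither second-row spot of Wif1 was well above background, so its value there is not read as a difference.

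**Figure D4:**
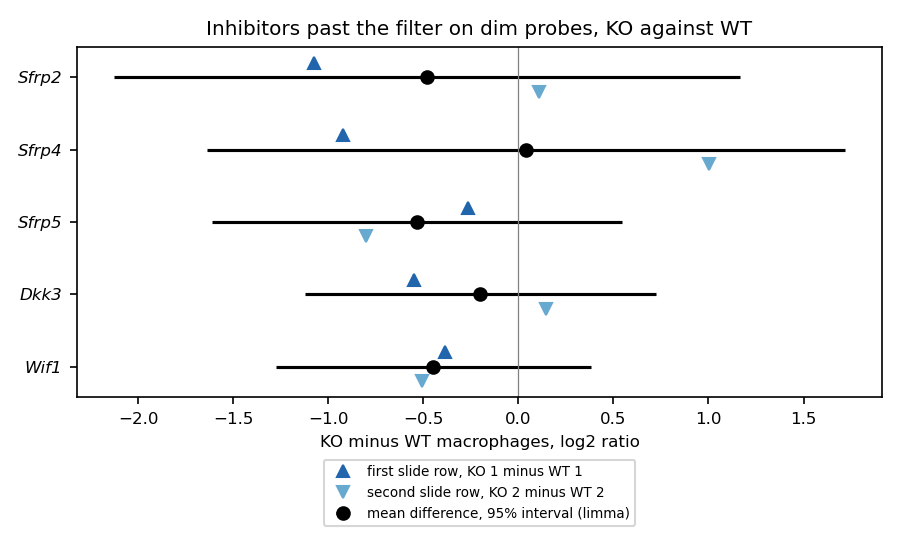
KO minus WT log2 ratio in mammary macrophages (x axis) for the 5 inhibitors past the filter on dim probes (y axis). Triangles are the difference within each slide row (upward: replicate 1 arrays, downward: replicate 2 arrays), and circles with bars are the mean difference with limma's 95% interval (n = 2 arrays per genotype). Every interval spans 0, and the rows lie on opposite sides of 0 for Sfrp2, Sfrp4 and Dkk3. The first-row value of Sfrp4 and the second-row value of Wif1 use spots not well above background.

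Fibroblast markers, like Sfrp2, were lower in KO macrophages within the first row and higher within the second, with median differences of -1.15 and 0.43. Their median level was -0.23 and -0.07 in KO macrophages, against 0.54 and -0.81 in WT macrophages. Their summed normalized Cy5 signal was 51159 and 40218 in KO macrophages, against 128265 and 32227 in WT macrophages. Of the 15 markers, 12 to 14 were well above background on each macrophage array. WT replicate 1, the macrophage array with the highest Sfrp2 and Sfrp4, thus also had the highest fibroblast markers and the lowest macrophage markers among these arrays. Its summed signal of basal markers was also the highest, at 33747 against 10842 to 18451 on the others. For luminal markers it was 64165 against 38053 to 55677. The row medians of KO minus WT were -0.08 and 0.20 for basal markers and 0.02 and 0.10 for luminal markers. Endothelial markers, like Sfrp5, were lower in KO macrophages within both rows, with median differences of -1.10 and -0.69. All 9 had a mean below that of WT macrophages, and 0 passed the threshold. Within the first row, however, Tek and Emcn were at 0.48 and 0.06. The median level over the 9 markers was 1.42 and 2.05 in KO macrophages, against 2.68 and 2.45 in WT macrophages. The 4 adipocyte markers tested were also lower on average, with row medians of -0.33 and -0.48, and 9 of 10 macrophage markers were higher, with row medians of 1.00 and 0.38, with 0 past the threshold in either list. The part of other cells in the values of these inhibitors was not tested.

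The rest of the pathway gave no call in macrophages either. Of 11 Wnt ligands tested, 7 were lower and 4 higher in KO macrophages, with 0 past the threshold and a median of -0.63. That median was -1.48 within the first row and -0.06 within the second. Wnt16 was at -1.71 (SE 1.40), Wnt10a at -1.70 (SE 0.78) and Wnt5a at -1.23 (SE 0.97). Of 14 receptors tested, 11 were lower with a median of -0.22, and of 9 beta-catenin targets, 5 were higher with a median of 0.23, with 0 past the threshold in each list. The 5 tested inhibitors had a median of -0.45, 4 lower and 1 higher, beside a median of -0.07 over all probes, of which 57.7% were lower. The inhibitors' median was -0.55 within the first row and 0.11 within the second.

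The genes whose 6 values were most like those of Sfrp1 were chosen by the root mean square of the difference after each gene was centred on its mean, among 19134 named genes. They were Vash2 at 0.19, Aldh1a7 at 0.27, Lbhd2 at 0.33, Tbx20 at 0.39 and Brinp1 at 0.39 on the log2 scale. Vash2 encodes a vasohibin and Aldh1a7 an aldehyde dehydrogenase. Vash2 read 0.61 in Dll1-high and 1.79 in Dll1-low cells, and Aldh1a7 read 0.98 in Dll1-high and 1.97 in Dll1-low cells. All 5 were lower in Dll1-high cells, by a log2 difference of -0.72 for Lbhd2 to -1.26 for Brinp1, which their choice favours. The likeness rests on 6 arrays from 2 slides, and Vash2 was well above background on only 2 of them.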

How the data were processed

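All values come from 6 Agilent arrays hybridised in 2 colours. Per the file headers, spot and background signals are raw intensity values, written by Feature Extraction 12.0.2.2 on the macrophage slide and 11.0.1.1 on the slide of the sorted states. Per the submitters' processing notes, the version was 11.0. Per the file headers, the scanner's log ratio and its error are log10 values of processed Cy5 over Cy3 signal. The value table that the authors deposited gives log2 ratios, which equalled the scanner ratio within 0.01 for 60 of 60 inhibitor values. It was not centred per gene, and its column medians ran from -0.117 to 0.139.

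Each array had 62976 spots, 3671 of them controls. Median spot signals were background-corrected with normexp (offset 50) and their log2 ratios loess-normalized array by array with limma 3.58.1 in R 4.3.3, using version 1.17.8 of data.table. Between 170 and 500 spots of an array carried a scanner mark of non-uniformity or of an outlying population and were dropped, and the rest were averaged to 55681 probes. The number of arrays limits the precision. The dyes were never swapped, so a probe's dye bias cancels between arrays only if equal on them.

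A minimum number of arrays with Cy5 well above background was required: 2 of 4 for the macrophage fit, 1 of 2 for the sorted states and 2 of 6 for the cell types. Genotypes were compared with limma's moderated test and Benjamini-Hochberg adjustment at 0.05 over all probes, without a term for slide row. The members and lists were chosen with earlier results of these data known. Genes other than inhibitors were represented by their probe of highest mean signal, and named as the 3 widest differences of a pathway list, or 4 of a marker list, and all past the threshold or 2-fold apart. Not all are printed. Alternatives were processed signals, median centring, the deposited table, Cy5 alone, other filters, trend and robust variance, the replicate block and leaving out each array.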

Additional observations from a re-analysis of the deposited data

How the results depend on the processing

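Sfrp1 stayed lower in Dll1-high cells under every alternative run, from -1.61 with Cy5 alone to -2.25 with processed signals and with the authors' deposited table. The count of inhibitors at least 2-fold lower was 2 with processed signals, the deposited table or Cy5 alone, and the count at least 2-fold higher was 1 with processed signals or the deposited table. The count of inhibitors higher in both sorted states than on all macrophage arrays was 3 with those same 2 sources. Dkk4, at -0.17 between the sorted states, was at 0.14 with Cy5 alone. The cause of these shifts was not tested.

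No alternative put a probe past an adjusted p of 0.05 between the genotypes, and leaving out each array gave 0 to 0. The count at an unadjusted p under 0.05 ran from 15 without KO replicate 1 to 6129 without WT replicate 2, beside 49 with all arrays and 224 with no filter. With the replicate number as a block, 0 probes passed and 192 had an unadjusted p under 0.05. Same-numbered arrays deviated together (r = 0.58 across 34568 probes). They lay in the same row of the slide, and in the labels they share only a number. A sign between genotypes turned for Sfrp2 with median centring (0.43) and without WT replicate 1 (0.27), and its values without 1 array ran from -1.23 to 0.27. It turned for Dkk3 with median centring (0.70). It turned for Sfrp4 with Cy5 alone (-0.84), without WT replicate 2 (-0.72) and without KO replicate 2 (-0.16). Each of these uses the Sfrp4 spot of KO replicate 1, which was near background in both channels. Without KO replicate 1, Sfrp4 was at 0.25. The Sfrp4 values without 1 array ran from -0.72 to 0.80. Median centring put the median of all probes at 0.39, against -0.07 after loess. Relative to these medians, Sfrp2 and Dkk3 are not reported as higher or lower, and the cause was not tested. Sfrp5 and Wif1 stayed below 0 in KO minus WT without any 1 array, from -0.91 to -0.16 and from -0.55 to -0.34, and were at -0.95 and -1.74 with processed signals and with the deposited table, with no call under any of these. Signals near background limit Frzb on all arrays, Dkk2 on all but 1, and Sfrp1, Dkk1, Dkk4 and Wif1 in macrophages.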
